A study of Mus musculus with 2 samples.

Results

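The D cyclins, their kinases CDK4 and CDK6, and the CDK inhibitors were examined in haematopoietic stem and progenitor cells from a conditional Trmt6 knockout, Trmt6 being the partner of Trmt61a in the methyltransferase that makes m1A in tRNA. The members were 10 genes listed by symbol, namely Ccnd1, Ccnd2, Ccnd3, Cdk4, Cdk6, Cdkn1b, Cdkn1c, Cdkn2c, Cdkn2d and Rb1, and all 10 were found among the 27998 genes of both libraries. Single-cell RNA sequencing had been carried out on LSK cells (Lin- Sca-1+ c-Kit+), the marrow fraction that holds haematopoietic stem cells (HSCs) and early progenitors, sorted from 3-month-old mice. One library, called WT, was labelled Trmt6fl/fl, and the other, called cKO, was labelled Trmt6fl/fl with MX1-cre, an interferon-inducible recombinase that is active in blood cells and in other tissues. The paper's scheme of the experiment gives Mx1-Cre and repeated pIpC injections for both genotypes, with controls that lack floxed alleles, its methods name Mx1-Cre mice with 1 or both alleles floxed, and the labels give a floxed control and the recombinase for cKO alone. The number of mice behind each library was not given in the sources used here.

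With 1 library per genotype, genotype and library cannot be told apart, and no test across samples could be made. Levels are unique molecular identifiers (UMIs) summed over a set of cells and scaled to a common total (CPM), with exact 95% Poisson intervals. Ratios are log2 of cKO over WT CPM with exact conditional intervals, and all intervals cover counting error only.

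The kept cells numbered 8150 in WT and 8483 in cKO, and the median UMI count per kept cell was 2.42 times higher in cKO (10029.0 against 4139.0). For this reason, shares of cells with a UMI, marker gates and mitotic classes were taken after each cell had been thinned to 2000 UMIs. The libraries shared 20 kept barcodes. Of the genes that define the sort, Kit stood at 63.1 CPM in WT against 21.5 CPM in cKO, and Ly6a, which encodes Sca-1, at 34.3 and 141 CPM. The lineage genes Cd3e and Ly6g were each below 2 CPM in both libraries, and the myeloid gene Itgam was at 10.3 CPM in WT against 1.13 CPM in cKO. Trmt6 was at 63.4 CPM in WT against 50.2 CPM in cKO (log2 -0.34, interval -0.41 to -0.27), and tags of the 3′ end do not show whether a transcript carries a deletion further upstream.

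D-type cyclins are the part of the cell cycle engine that answers to growth signals. They bind CDK4 or CDK6, and the complexes phosphorylate the retinoblastoma protein, the product of Rb1, which then releases E2F factors and lets a cell pass from G1 into S phase. The INK4 inhibitors, here Cdkn2c (p18) and Cdkn2d (p19), bind CDK4 and CDK6 themselves, while the CIP/KIP inhibitors, here Cdkn1b (p27) and Cdkn1c (p57), act mainly on CDK2 complexes and also bind the D cyclin complexes. In the stem cell compartment, Cdkn1c is known for holding HSCs in quiescence, Cdkn2c for restraining their self-renewal, and Cdk6 for setting the pace at which they leave quiescence.

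Since both kinases serve the same cyclins but their transcripts differed in opposite directions between the libraries, the 250 bases before their start sites are shown, 5′ to 3′, from RefSeq on GRCm38.p6. Both lie on the plus strand, at chr10:127063285-127063534 and chr5:3343643-3343892. The Cdk6 start used by RefSeq lies inside the longer GENCODE gene span. Capitals mark CACGTG, the palindromic E-box.
Cdk4: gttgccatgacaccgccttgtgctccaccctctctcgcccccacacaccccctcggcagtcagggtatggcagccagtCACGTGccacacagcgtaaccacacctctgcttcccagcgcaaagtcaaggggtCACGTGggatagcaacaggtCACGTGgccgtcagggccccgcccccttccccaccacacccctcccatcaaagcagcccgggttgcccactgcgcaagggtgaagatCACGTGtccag
Cdk6: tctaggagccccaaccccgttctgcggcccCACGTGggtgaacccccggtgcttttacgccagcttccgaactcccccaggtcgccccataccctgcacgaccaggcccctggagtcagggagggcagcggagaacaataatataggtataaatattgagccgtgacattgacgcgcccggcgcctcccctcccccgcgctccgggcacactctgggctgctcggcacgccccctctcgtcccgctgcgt
The Cdk4 sequence held 4 E-boxes, at -172, -118, -98 and -11 from the start site, and the Cdk6 sequence held 1, at -220. Of the other windows of members, only 1 of Cdkn2c held an E-box, at 34 bases after its start. Among 32851 promoter windows of 300 bases (250 before and 50 after a start site), 7.15% held at least 1 E-box and 8 windows held 4 or more. Promoter windows were found for 6 of the 10 members (8 windows, as Ccnd3 and Cdkn2c had 2 each). The E2F-type letters TTTGGCGC, TTTCCCGC, TTTGGCGG and TTTCGCGC, searched on both strands and present in 2.37% of all windows, and the cell cycle homology letters TTTGAA and TTCGAA, present in 19.2%, were in none of these 8 windows. A match is a string of letters and not a bound site.

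Over all kept cells, 5 of the 10 members differed by more than 1.5-fold between cKO and WT. Ccnd1 and Cdkn1c were higher in cKO, and Cdk6, Cdkn1b and Cdkn2c were lower. By the same rule 6.76% of the 9139 genes that reached 5 CPM on either side were higher and 13.8% were lower. The median log2 ratio was -0.13 over the members and -0.07 over all 9139 genes, so the members lay on both sides rather than being shifted together. Ccnd2, with a log2 ratio of 0.58, lay just inside the limit and passed it under 6 of the 9 alternatives for this comparison.

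**Figure D1:**
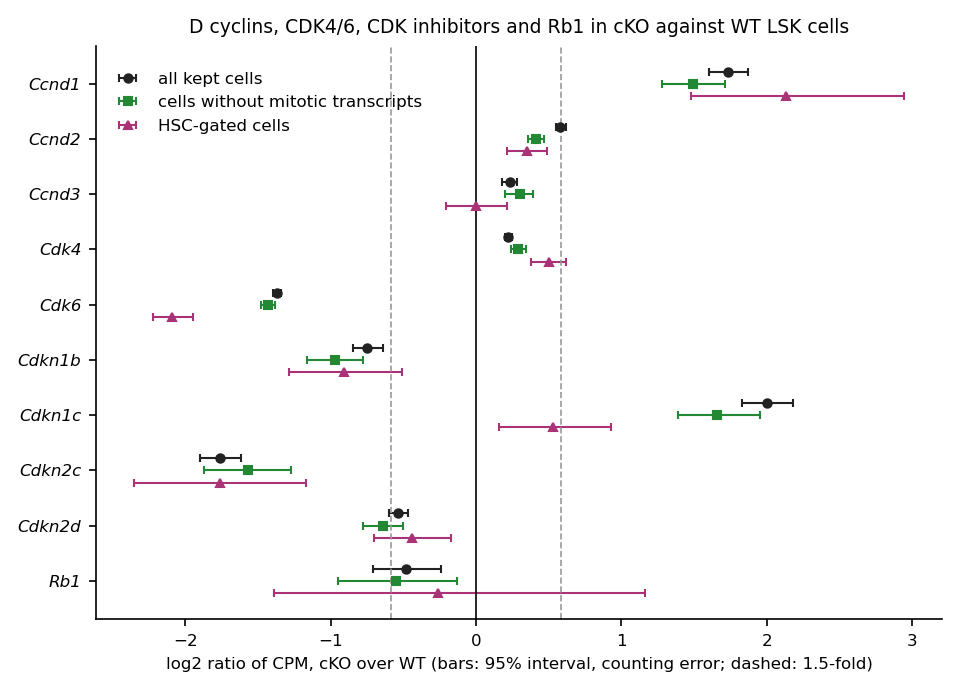
Log2 ratio of CPM, cKO over WT, for each of the 10 members in 3 sets of cells. The sets are all kept cells, cells without mitotic transcripts (0 mitotic UMIs after thinning to 2000 UMIs) and HSC-gated cells. Points are ratios, bars are 95% intervals of counting error and dashed lines mark 1.5-fold. Cdk6 and Cdkn2c lie left of the dashed line and Ccnd1 lies right of it in all 3 sets of cells, while Cdkn1c, with an interval from 1.83 to 2.18 over all cells, has a log2 ratio of 0.53 in the HSC gate.

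Cdk6 (ENSMUSG00000040274, GRCm38 chr5:3341485-3531008, plus strand) had one of the plainest differences of the 10. Its level was 518 CPM (511 to 525) in WT against 201 CPM (198 to 204) in cKO (log2 -1.37, interval -1.40 to -1.34). After thinning, 60.0% of WT cells and 27.4% of cKO cells held a Cdk6 UMI. The whole distribution was lower, as 11.5% of WT cells but 1.43% of cKO cells held 3 or more Cdk6 UMIs, and the mean per thinned cell was 1.06 in WT and 0.360 in cKO. A low share was seen in the neutrophil gate of WT, where 14.0% of 57 cells held a Cdk6 UMI at a level of 56.1 CPM. The 7 neutrophil markers summed to 464172 CPM in that gate, which lowers the CPM and the thinned share of every other gene there. No cKO cell fell in the neutrophil gate.

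Cells were then split by lineage with marker gates, in which a cell had to hold UMIs of at least 2 markers of a lineage (4 for GMP and neutrophil) and of no other list. Of the kept WT and cKO cells, 59.5% and 80.8% met no list, and the HSC gate took 573 WT cells (7.03%) and 877 cKO cells (10.3%). The summed level of the 8 HSC markers in that gate was 1021 CPM in WT against 710 CPM in cKO, with 143 and 212 CPM in the other cells.

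In WT, Cdk6 lay between 475 CPM in the HSC gate and 654 CPM in the basophil or mast gate, the neutrophil gate and the 25 erythroid-primed cells (439 CPM) aside. In cKO it was graded. The HSC gate was the lowest at 112 CPM (104 to 120), followed beyond counting error by the dendritic or monocyte gate at 144 CPM (123 to 167). The B lineage gate at 194 CPM (160 to 233) overlapped both that gate and ungated cells at 204 CPM (200 to 207). Lymphoid-primed cells stood at 270 CPM (242 to 300) and megakaryocyte-primed cells at 291 CPM (255 to 332), which overlapped each other and the erythroid-primed (277 CPM) and T or NK (287 CPM) gates between them. Basophil or mast cells, at 468 CPM (364 to 592), and GMP-gated cells, at 471 CPM (426 to 519), were the highest.

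The ratios were then set side by side by gate. In HSC-gated cells Cdk6 was 475 CPM in WT against 112 CPM in cKO (log2 -2.09, interval -2.22 to -1.95). In the GMP gate, the granulocyte and monocyte progenitors, the ratio was -0.06 (-0.21 to 0.09), from 889 WT and 51 cKO cells. The interval lay below 0 in 9 of the 10 sets of cells found in both libraries (9 gates and the ungated cells), GMP being the exception. Whether the ratio differs between gates was not tested, as each gate comes from the same 2 libraries, and the few cKO cells of the GMP gate had a median of 17007 UMIs against 10029 in all cKO cells.

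Cdk4 (ENSMUSG00000006728, chr10:127063534-127067920, plus strand) went the other way by a smaller amount. It was 454 CPM (447 to 460) in WT against 530 CPM (525 to 535) in cKO (log2 0.22, interval 0.20 to 0.25), and 54.9% and 62.7% of thinned cells held a UMI, against 5.26% in the WT neutrophil gate. In the HSC gate it was 335 CPM (310 to 362) in WT against 474 CPM (458 to 490) in cKO, 1.41-fold higher. WT HSC-gated cells held less Cdk4 than lymphoid-primed (456 CPM) or GMP-gated (500 CPM) cells of the same library, and in cKO the HSC gate at 474 CPM was likewise below lymphoid-primed cells at 622 CPM (580 to 667) but overlapped the GMP gate at 509 CPM (463 to 559).

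The balance between the kinases can be read without any scaling between libraries, as the share of Cdk6 among all Cdk4 and Cdk6 UMIs. This share was 53.3% (52.8 to 53.8) in WT and 27.5% (27.1 to 27.8) in cKO. In the HSC gate it was 58.7% (56.2 to 61.1) in WT and 19.1% (17.9 to 20.4) in cKO. In the GMP gate the shares were 49.5% (48.4 to 50.6) and 48.0% (44.6 to 51.5), and these intervals overlapped. Basophil or mast cells, with 60.0% in WT and 60.5% in cKO, overlapped too, from 73 and 22 cells, as did the small erythroid-primed and T or NK gates. Because the 3′ tags count transcripts and not proteins, a share of UMIs is no share of kinase.

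**Figure D2:**
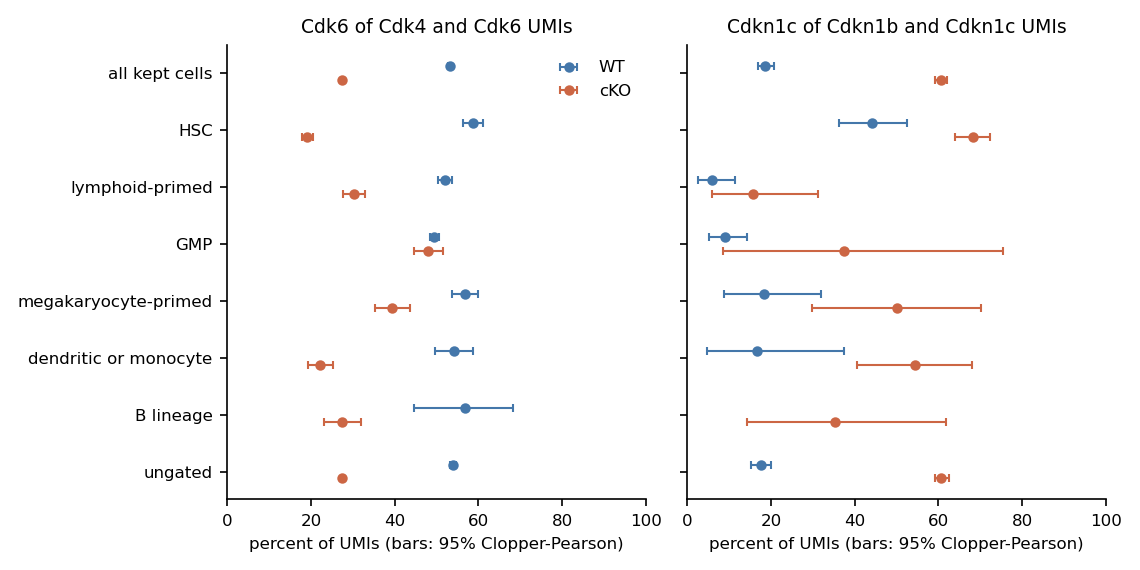
Share of Cdk6 among Cdk4 and Cdk6 UMIs (left) and of Cdkn1c among Cdkn1b and Cdkn1c UMIs (right), in percent, by library. The sets are all kept cells, the HSC, lymphoid-primed, GMP, megakaryocyte-primed, dendritic or monocyte and B lineage gates and ungated cells, where they held at least 5 such UMIs. Points are shares and bars are 95% Clopper-Pearson intervals. The intervals of the Cdk6 share overlap between the libraries in the GMP gate (49.5% and 48.0%) and lie lower in cKO in the other sets shown. The Cdkn1c share over all cells is 18.6% in WT and 60.7% in cKO.

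Among the D cyclins, Ccnd1 (ENSMUSG00000070348, chr7:144929931-144939925, minus strand) differed most. It was 13.1 CPM in WT against 43.5 CPM in cKO (log2 1.73, interval 1.60 to 1.87). Thinned cells with a Ccnd1 UMI made up 2.25% of WT and 8.14% of cKO. In the cKO B lineage gate, 8.33% (3.42 to 16.4) of 84 cells held a UMI. Free RNA was not measured, so its part in shares of this size was not tested. Among the cKO gates of at least 50 cells, the levels ran from 32.4 CPM (19.5 to 50.5) in the B lineage gate through 41.3 CPM (36.7 to 46.3) in the HSC gate to 73.8 CPM (59.2 to 90.9) in the dendritic or monocyte gate and 79.9 CPM (65.2 to 96.9) in lymphoid-primed cells, and the intervals of the last 2 lay above those of the first 2. The smaller erythroid-primed, basophil or mast and T or NK gates held 5.13, 6.78 and 30.2 CPM, from 1, 1 and 4 UMIs.

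In WT, Ccnd1 was at 9.20 CPM (5.45 to 14.5) in the HSC gate, 23.3 CPM (18.4 to 29.1) in lymphoid-primed cells and 29.6 CPM (16.9 to 48.1) in dendritic or monocyte cells. The GMP gate held 7.93 CPM (6.13 to 10.1) in WT and 47.8 CPM (34.3 to 64.8) in cKO, and overlapped the HSC gate in both libraries. The HSC gate rested on 18 Ccnd1 UMIs in WT and 290 in cKO (log2 2.13, interval 1.48 to 2.94). With 3 HSC markers required instead of 2, it was 1.27, and with gates set on cells thinned to 3000 UMIs it was 1.47. Megakaryocyte-primed cells, at 25.2 CPM in WT against 32.5 CPM in cKO, were among the higher gates in WT but not in cKO, and their ratio gave an interval that held 0 (-0.46 to 1.18).

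Ccnd2 (ENSMUSG00000000184, chr6:127125162-127152193, minus strand) was 225 CPM (220 to 230) in WT against 337 CPM (333 to 341) in cKO (log2 0.58, interval 0.55 to 0.62). Its share of thinned cells was 35.3% in WT and 47.3% in cKO. In the WT neutrophil gate it was 0 of 57 cells (upper limit 6.27%), and 6 UMIs before thinning gave 14.6 CPM there. Megakaryocyte-primed cells held the most Ccnd2 among the gates of at least 50 cells in both libraries, with 360 CPM in WT against 461 CPM in cKO. GMP-gated cells held 179 CPM (170 to 188) in WT against 317 CPM (280 to 357) in cKO, whereas in the HSC gate the difference was smaller, from 261 to 332 CPM (log2 0.35, interval 0.21 to 0.49).

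Ccnd3 (ENSMUSG00000034165, chr17:47505051-47599691, plus strand) was the D cyclin with the smallest difference, at 108 CPM (105 to 111) in WT against 126 CPM (124 to 129) in cKO. In the HSC gate it was 120 CPM in both libraries, with a ratio interval from -0.21 to 0.21. B lineage cells were the richest in Ccnd3 in cKO, at 428 CPM (376 to 484), and the neutrophil gate was the richest in WT among gates of at least 50 cells, at 337 CPM (283 to 398). Ccnd1 made up 3.79% (3.48 to 4.11) of all D cyclin UMIs in WT and 8.58% (8.32 to 8.85) in cKO.

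**Figure D3:**
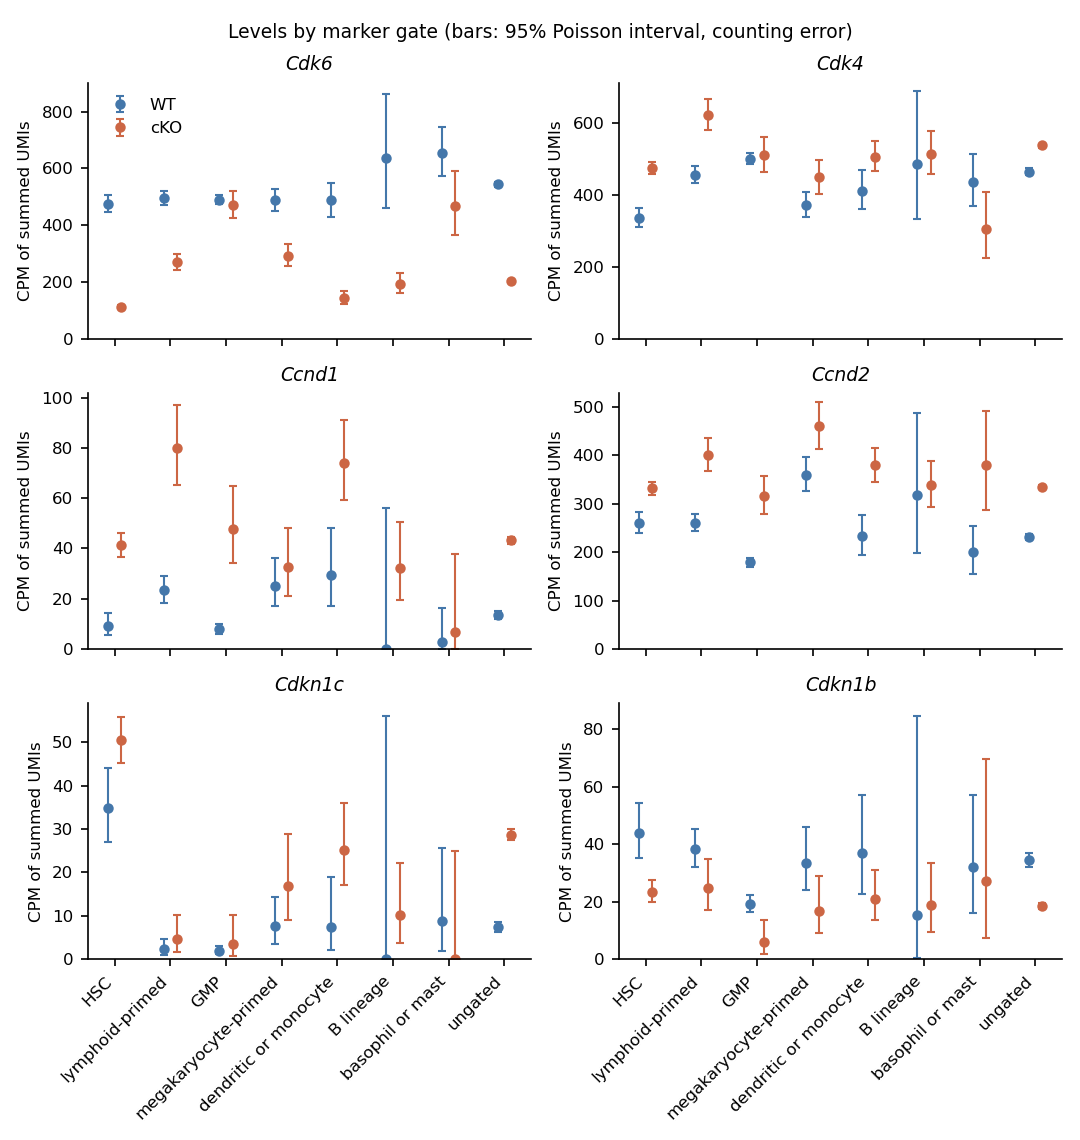
CPM of summed UMIs of Cdk6, Cdk4, Ccnd1, Ccnd2, Cdkn1c and Cdkn1b by marker gate in WT and cKO. Points are levels and bars are 95% Poisson intervals of counting error. Cdk6 in cKO runs from 112 CPM in the HSC gate to 471 CPM in the GMP gate, and Cdkn1c is highest in the HSC gate of both libraries, at 34.8 and 50.4 CPM.

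Of the CIP/KIP inhibitors, Cdkn1c (ENSMUSG00000037664, chr7:143458339-143461050, minus strand) was higher and Cdkn1b (ENSMUSG00000003031, chr6:134920401-134925513, plus strand) was lower in cKO. Cdkn1c was 7.30 CPM (6.51 to 8.17) in WT against 29.3 CPM (28.2 to 30.4) in cKO, with a log2 interval from 1.83 to 2.18. The ratio was 1.49 when both libraries were given the same mix of gates and mitotic classes. A Cdkn1c UMI was found in 2.01% of WT and 6.05% of cKO thinned cells, and in 3.57% (0.743 to 10.1) of the 84 cKO cells of the B lineage gate. How much of these shares is free RNA was not tested.

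In WT, Cdkn1c was concentrated in the HSC gate, at 34.8 CPM (27.0 to 44.1), against 7.32 CPM (6.26 to 8.51) in ungated cells, 2.39 CPM in lymphoid-primed and 1.92 CPM in GMP-gated cells. In cKO the HSC gate was again the highest, at 50.4 CPM (45.3 to 55.9), but ungated cells stood at 28.7 CPM (27.5 to 29.9) and dendritic or monocyte cells at 25.2 CPM (17.0 to 35.9). Hence the ratio was 1.96 (1.74 to 2.20) in ungated cells and 0.53 (0.16 to 0.93) in the HSC gate, where it was -0.09 if 3 markers were required (125 WT and 205 cKO cells) and 1.20 if cells were thinned to 3000 UMIs. Lymphoid-primed and GMP-gated cells of cKO held 4.65 and 3.50 CPM, from 6 and 3 UMIs. Of the thinned cells with a Cdkn1c UMI, 29.4% (22.4 to 37.1) in WT and 18.3% (15.1 to 22.0) in cKO held UMIs of 2 or more HSC markers, against 8.13% and 10.5% of the cells without one.

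Cdkn1b was 31.9 CPM (30.2 to 33.7) in WT against 19.0 CPM (18.1 to 19.9) in cKO (log2 -0.75, interval -0.85 to -0.64). The interval lay below 0 in the HSC (-0.91), lymphoid-primed (-0.61), GMP (-1.59), megakaryocyte-primed (-0.95) and ungated (-0.89) cells, the GMP gate of cKO resting on 5 UMIs. Within both libraries the GMP gate held the least Cdkn1b among gates of at least 50 cells, at 19.2 CPM in WT against 5.83 CPM in cKO. Cdkn1c thereby made up 18.6% (16.8 to 20.6) of the Cdkn1b and Cdkn1c UMIs in WT and 60.7% (59.2 to 62.1) in cKO. In HSC-gated cells these shares were 44.2% (36.2 to 52.4) and 68.2% (64.0 to 72.2).

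Both INK4 inhibitors were lower in cKO. Cdkn2c (ENSMUSG00000028551, chr4:109660876-109667189, minus strand) was 25.8 CPM (24.3 to 27.4) in WT against 7.61 CPM (7.04 to 8.21) in cKO (log2 -1.76, interval -1.90 to -1.62), and 4.83% and 1.65% of thinned cells held a UMI. The share was 1.75% (0.0444 to 9.39) in the WT neutrophil gate, from 1 of 57 cells, and 2.38% (0.290 to 8.34) in the cKO B lineage gate, from 2 of 84. Both intervals held the cKO share. Free RNA was not measured, so its part in these shares was not tested. Cdkn2d (ENSMUSG00000096472, chr9:21288410-21291407, minus strand) was 76.7 CPM (74.1 to 79.4) in WT against 52.8 CPM (51.3 to 54.4) in cKO (log2 -0.54, interval -0.60 to -0.47). As a share of their summed UMIs, Cdkn2c made up 25.2% (23.9 to 26.5) in WT and 12.6% (11.7 to 13.5) in cKO.

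By gate, Cdkn2c was 25.1 CPM in WT against 7.40 CPM in cKO in the HSC gate, a log2 ratio of -1.76 (-2.35 to -1.17). Lymphoid-primed (-2.23), megakaryocyte-primed (-1.87) and dendritic or monocyte (-1.45) cells also had intervals below 0, and the GMP gate, with 147 WT and 10 cKO UMIs, had one that held 0 (-1.69 to 0.32). Cdkn2d differed most in lymphoid-primed cells among the gates of at least 50 cells in both libraries, from 67.1 CPM (58.7 to 76.5) in WT to 23.3 CPM (15.7 to 33.2) in cKO. Its highest level was in the WT neutrophil gate, at 307 CPM (256 to 366).

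Rb1 (ENSMUSG00000022105, chr14:73183673-73325822, minus strand), the substrate of these kinases, was the sparsest member, with 251 UMIs in WT and 377 in cKO. It was 6.03 CPM (5.31 to 6.82) in WT against 4.33 CPM (3.91 to 4.79) in cKO (log2 -0.48, interval -0.71 to -0.24). Only 8 WT and 25 cKO UMIs came from the HSC gate, so a difference there was not detectable at this depth.

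In HSC-gated cells as a whole, 4 of the 9 members at 5 CPM or more passed 1.5-fold (Ccnd1 higher, and Cdk6, Cdkn1b and Cdkn2c lower), Rb1 being under that minimum. Of all 9554 genes in this comparison, 7.67% were higher and 21.6% were lower. The median ratio was -0.14 over those genes and -0.00 over the members, and scaling by TMM factors moved the median of all genes to 0.03. Under TMM, median-of-ratios and a total that left out mitochondrial and ribosomal protein genes, 6 members passed, 3 higher and 3 lower, since Cdk4 and Cdkn1c joined Ccnd1. The share of thinned cells with 3 or more UMIs of 20 mitotic genes was 19.2% (16.1 to 22.7) in the WT and 25.2% (22.4 to 28.2) in the cKO HSC gate, against 36.3% and 34.8% of all cells.

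Cells without any mitotic transcript, 2885 in WT and 3342 in cKO, were then compared, so that the mitotic share did not enter. Here 6 of 10 members passed 1.5-fold, Ccnd1 and Cdkn1c being higher and Cdk6, Cdkn1b, Cdkn2c and Cdkn2d lower, with 6.92% of 9267 genes higher and 17.7% lower. Cdkn2d, at -0.64, no longer passed under TMM (-0.51), median-of-ratios (-0.50), a total free of mitochondrial and ribosomal protein genes (-0.54), or thinning to 1000 (-0.56) or 3000 UMIs (-0.51). The median log2 ratio was -0.13 over the members and -0.09 over all genes. Cdk6 was 556 CPM (542 to 570) in WT against 206 CPM (201 to 211) in cKO, a log2 ratio of -1.43. Cdkn1c was 10.8 CPM (8.98 to 13.0) and 34.4 CPM (32.3 to 36.5), and Ccnd1 was 18.9 CPM (16.4 to 21.6) and 53.0 CPM (50.4 to 55.7).

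The cells that also held at most 1 S phase UMI, 1250 in WT and 1101 in cKO, were taken next, a class that does not separate resting cells from cells in G1. In them Cdk6 was 553 CPM in WT against 172 CPM in cKO (log2 ratio -1.68), Cdkn1b 45.1 and 23.1 CPM (-0.96), and Cdkn1c 15.4 and 39.2 CPM (1.34). Cells without mitotic transcripts but with 4 or more S phase UMIs held less Cdkn1c, at 6.46 CPM (4.22 to 9.46) in WT against 28.4 CPM (25.5 to 31.6) in cKO, and less Cdkn1b, at 27.3 and 15.1 CPM. They held more Cdk4, at 509 CPM against 335 CPM in WT against 571 CPM against 408 CPM in cKO, and more Ccnd1, at 27.8 CPM (22.9 to 33.5) against 11.6 CPM (8.55 to 15.5) in WT against 59.5 CPM (55.3 to 64.1) against 44.9 CPM (40.5 to 49.6) in cKO.

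Within each library, cells with 3 or more mitotic UMIs were next set against cells with 0. The former are called mitotic by that count alone. The list holds Mki67, Top2a and Cenpf as well as Plk1 and Cdc20, and whether these cells were in mitosis was not measured. In WT, 5 of 10 members passed 1.5-fold: Cdkn2c and Cdkn2d were higher in mitotic cells and Ccnd1, Ccnd2 and Cdkn1c were lower, with 6.43% of 9228 genes higher and 13.5% lower. In cKO, 4 of 9 passed (Cdkn2c and Cdkn2d higher, Ccnd1 and Ccnd2 lower), with 4.56% of 8810 genes higher and 4.11% lower. The median log2 ratio over the members was -0.21 in WT and -0.03 in cKO, and over all genes -0.10 and -0.05. Mitotic cells were deeper, with a median of 6222 against 3335 UMIs in WT and 11931 against 8632 UMIs in cKO, and cells of 1 library are not replicates. The mitotic class also differed in make-up, as cells with 12 or more mitotic UMIs were 11.8% of WT and 6.64% of cKO cells, and those with 3 to 5 were 10.4% and 14.5%.

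Ccnd2 was lower in cells with more mitotic UMIs, being 312, 267, 178, 149 and 149 CPM in WT cells with 0, 1 to 2, 3 to 5, 6 to 11 and 12 or more mitotic UMIs. The cKO values over the same classes were 415, 362, 267, 251 and 244 CPM, above WT in each. Ccnd1 went from 18.9 to 5.29 CPM in WT and from 53.0 to 25.2 CPM in cKO between the first and last class. Ccnd3, in contrast, stayed between 101 and 121 CPM in WT and between 106 and 140 CPM in cKO.

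The INK4 genes had the opposite slope. Cdkn2d went from 58.0 CPM (53.6 to 62.7) to 126 CPM (117 to 135) between the first and last class in WT, and from 37.3 CPM (35.2 to 39.6) to 93.8 CPM (86.6 to 101) in cKO. Cdkn2c went from 17.9 CPM (15.5 to 20.5) to 47.1 CPM (41.8 to 52.9) in WT but only from 6.03 CPM (5.19 to 6.98) to 10.8 CPM (8.44 to 13.6) in cKO. Of the WT cells with a Cdkn2c UMI 52.6% (47.5 to 57.7) were mitotic, against 35.5% of the other WT cells, and in cKO the shares were 40.6% (32.3 to 49.3) and 34.7%.

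Cdk6 differed little with the mitotic count. It ran from 457 to 556 CPM over the classes in WT and from 170 to 206 CPM in cKO, so that in each class the gap between the libraries was wider than the range within either. Its mitotic to non-mitotic ratio in cKO, -0.06 (-0.11 to -0.01), became 0.02 under TMM and 0.04 under median-of-ratios scaling. Cdk4 was highest in cells with 3 to 5 mitotic UMIs, at 513 CPM (495 to 532) in WT against 572 CPM (560 to 584) in cKO. These intervals overlapped those of cells with 6 to 11 in WT (481 to 511) and with 1 to 2 in cKO (550 to 570). Cdkn1b was lowest at intermediate counts and reached 43.7 CPM (38.5 to 49.2) in WT against 29.5 CPM (25.5 to 33.9) in cKO in cells with 12 or more. Cdkn1c was lower in mitotic cells of both libraries, with log2 ratios of -1.50 (-1.94 to -1.08) in WT and -0.55 (-0.68 to -0.42) in cKO.

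**Figure D4:**
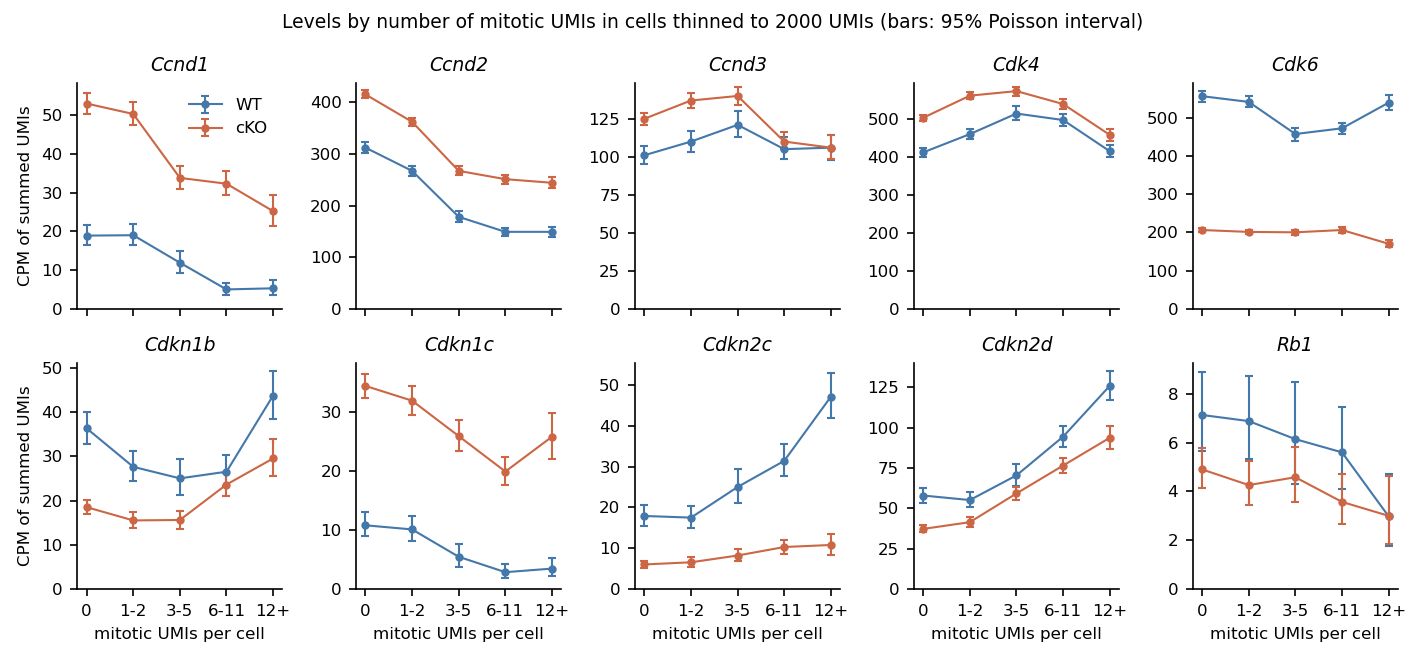
CPM of summed UMIs of the 10 members by the number of mitotic UMIs per cell (x axis, cells thinned to 2000 UMIs) in WT and cKO. Points are levels and bars are 95% Poisson intervals of counting error. Ccnd2 runs from 312 to 149 CPM in WT and from 415 to 244 CPM in cKO, Cdkn2d from 58.0 to 126 CPM and from 37.3 to 93.8 CPM, and Cdk6 in cKO stays between 170 and 206 CPM.

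The same split was made within the HSC gate, where Ccnd2 was lower in mitotic cells by -1.01 (-1.40 to -0.65) in WT and -0.66 (-0.81 to -0.51) in cKO, and Cdk6 had ratios of -0.03 in both, with intervals that held 0. Cdkn1b went against the whole library in WT, at 38.8 CPM (26.5 to 54.7) without mitotic transcripts and 68.9 CPM (48.0 to 95.8) in mitotic cells, a ratio of 0.83 (0.10 to 1.57) from 32 and 35 UMIs, and in cKO the ratio was 0.22 (-0.29 to 0.72). Cdkn1c in HSC-gated cells of cKO was 51.1 CPM without mitotic transcripts and 46.9 CPM in mitotic cells, a ratio of -0.12 (-0.50 to 0.24), and in WT it was 38.8 and 23.6 CPM from 32 and 12 UMIs. Among ungated cells, which make up most of both libraries, Cdkn1c was 9.88 against 4.08 CPM in WT and 33.8 against 22.9 CPM in cKO. Ccnd1 had 14 UMIs in the WT HSC-gated cells without mitotic transcripts and 0 in the 110 mitotic ones, whereas in cKO it was 52.1 and 21.9 CPM.

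Around these genes, 34 others of the same pathway were listed, of which 28 were at 5 CPM or more, with a median log2 ratio of 0.05 over all kept cells against -0.07 over all genes. By the 1.5-fold rule 2 of the 28 were higher and 1 was lower, beside 6.76% and 13.8% of all 9139 genes. Past 1.5-fold were Ccne1, a cyclin E that drives CDK2 after the D cyclins, at 8.51 CPM in WT against 15.0 CPM in cKO (0.81, 0.64 to 0.99), and Fbxo4, an F-box protein linked to cyclin D1 turnover, at 11.7 and 17.5 CPM (0.59, 0.44 to 0.74). Cdkn3, a phosphatase of CDKs whose transcript peaks late in the cycle, was lower, at 51.8 and 24.7 CPM (-1.07, -1.16 to -0.98). By list, 1 of 7 G1/S partners was higher, 1 of the 2 measured other CDK inhibitors was lower, 1 of 5 turnover genes was higher, and 0 of 9 RB family and E2F genes and 0 of 5 MuvB core genes passed. Cdkn2a and Cdkn2b, the other INK4 genes, had 1 and 0 UMIs in WT and 18 and 19 in cKO.

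Over 15 sets of cells (7 gates and the ungated cells in WT and 6 and the ungated cells in cKO, each of at least 50 cells), genes whose log2 levels closely followed each member were listed among 7013 genes. Cdk6 was followed by Snhg9 (Pearson r 0.94), Cdk4 by Rps25 and Eef1g (both 0.99), and Ccnd2 by Cisd1 (0.99) and Cnbp (0.98). Ccnd1 was followed by Nudt8 (0.90) and Bag2 (0.89), and Ccnd3 by Pde2a (0.82) and Slc17a9 (0.81). For the inhibitors these were Smagp and Snap47 for Cdkn1c (both 0.93), Wrn and Tnrc6b for Cdkn1b (both 0.94), Gm42418 (0.89) and Atp6v0e (0.88) for Cdkn2c, and Sri (0.96) and Slc25a24 (0.93) for Cdkn2d. Rb1 was too sparse to be ranked. The sets share 2 libraries and include 1 neutrophil gate with levels far from the rest, so these coefficients describe the order of sets and no more.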

How the data were processed

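Single-cell RNA of sorted LSK cells was measured in 1 WT and 1 cKO library. The deposited values are raw UMI counts for each gene and barcode. Per the submitters' notes the authors ran Cell Ranger 6.0.0 with GRCm38 (mm10). The kit is v2 in the labels and v3 in the study's methods. The study's limits were applied: over 200 genes, under 4000 (WT) or 4500 (cKO) genes, under 10% (WT) or 5% (cKO) mitochondrial and under 5% hemoglobin UMIs, leaving 8763 and 9151 cells. Simulated-doublet scores then removed 613 and 668. Cells were thinned to 2000 UMIs for gates and mitotic classes, leaving out 202 WT and 105 cKO cells, but levels use all their UMIs. Ratios add 0.5 counts. Gates used markers of 10 lineages, so they are marker classes and no annotated types.

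Analyses used Python 3.11.15, numpy 2.4.6, scipy 1.17.1, scikit-learn 1.9.0 and edgeR 4.0.16 in R 4.3.3 (TMM only), and were tested on simulated data. The members and lists were chosen with earlier results of these data known. All 10 members are named; of the 34 pathway genes, those past 1.5-fold, and for likeness the 2 highest r, apart from results that are not reported here. Gene positions are from GENCODE M21, matched by gene ID. Ccnd1, Ccnd2, Ccnd3, Cdk4, Cdk6, Cdkn1c and Rb1 overlap genes on the opposite strand.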

Additional observations from a re-analysis of the deposited data

Results flagged for a closer look

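Cdk4 in the basophil or mast gate stood apart because its log2 ratio was -0.50 (-1.03 to -0.03), from 436 CPM in WT to 305 CPM in cKO, while the ratio was above 0, with intervals that left out 0, in 5 other sets of cells (the HSC, lymphoid-primed, megakaryocyte-primed, dendritic or monocyte and ungated cells). The gate held 73 WT and 22 cKO cells, and its summed marker level was 1201 CPM in WT and 30228 CPM in cKO, with Prss34 and Mcpt8 leading in cKO. The difference between the sets was not tested.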

How the results depend on the processing

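All 51 recomputed counts of members past 1.5-fold stayed within 1.5 times their main value, and 394 of the 500 recomputed member ratios stayed within the interval of the main ratio. Of the others, 103 moved outside it with their direction or without a call, and 3 turned direction: Cdkn1c in HSC-gated cells, -0.09 when 1 more marker was required, and Cdk6 in mitotic against non-mitotic cells of cKO, 0.02 with TMM factors and 0.04 with median-of-ratios size factors. Over all kept cells, the ratios of all 10 members kept their sign under the 9 alternatives that recomputed them, with Cdk6 between -1.53 and -1.26 and Cdkn1c between 1.49 and 2.10. In the HSC gate Cdk6 ranged from -2.21 to -1.92, and Ccnd3 and Rb1 changed sign between settings, as did Ccnd3 in the cKO mitotic comparison, their intervals holding 0. The median of all genes moved from -0.14 to 0.03 in the HSC gate and from -0.10 to 0.06 in the WT mitotic comparison with TMM factors. No paired analysis was possible because each genotype has 1 library and the comparison has no test, and for the same reason no replicate could be left out. Depth limits Rb1 in the gates, and Cdkn1b, Cdkn1c and Cdkn2c in the small cKO gates, to a few UMIs. The sum of cells follows the deepest cells most, and free RNA was not removed.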
